A study of Homo sapiens with 12 samples.

Results

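SOX21 and SOX21-AS1 are neighbouring genes on human chromosome 13, and SOX21 is the gene that the study disrupted. They were taken by name from the expression table and make up 2 of its 58219 genes; both passed the filter on low values used for testing (2 or more libraries at 1 TPM or above, passed by 24248 genes). The study followed H9, a widely used line of human embryonic stem cells, through neural differentiation, to learn what SOX21 does early in that process. Poly(A) RNA was sequenced at days 0, 4 and 8 from wild-type cells (labels WT1 and WT2) and from cells labelled SOX21-/- (labels S13 and S23), which gave 12 libraries in 6 groups of 2. What S13 and S23 are, how SOX21 was disrupted, and whether libraries of one label at different days came from one culture are not given in the sources used here. The p-values below thus measure the spread between these libraries, which may be technical. Levels are in TPM, which gives the share of a library's transcripts that a gene holds, corrected for its length, so that levels of different genes can be compared. Fold changes and tests are on log2(TPM + 1) from a single limma fit to all libraries, with p-values adjusted over all genes tested.

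The SOX21 protein is a transcription factor that, like all SOX proteins, binds DNA through an HMG box. Together with SOX14 it forms the B2 subgroup, known mostly as repressors, which recognise the same DNA motif as the B1 proteins SOX1, SOX2 and SOX3 and can oppose them in neural progenitors. SOX21-AS1 is a long noncoding RNA whose gene starts next to SOX21 and runs away from it on the opposite strand, an arrangement called divergent.

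In the GENCODE v29 annotation of GRCh38, SOX21 (ENSG00000125285.5) is a single exon of 2778 bases at chr13:94709622-94712399 on the minus strand. SOX21-AS1 (ENSG00000227640.2), annotated as a lincRNA, is at chr13:94712716-94716246 on the plus strand, with 2 exons of 3287 bases in all. Each gene has 1 annotated transcript, 316 bases separate the 2 genes, and 0 of their exons overlap. The deposited table does not say whether strand was used in counting, but reads inside these exons are separated by position alone. Of the 31-base words of SOX21, 47 of 2748 (1.71%) also occurred in transcripts of other genes, SOX1, SOX2, SOX9, SOX10 and SOX14 among them; for SOX21-AS1 the number was 12 of 3253 (0.369%).

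RefSeq (GRCh38.p14) places the start of SOX21 146 bases further out, at position 94712545, and that of SOX21-AS1 at 94712716. The promoter windows of the 2 genes, 250 bases before to 50 after each RefSeq start, therefore share 270 of their 300 bases. The stretch between the 2 starts is shown because both genes are read outwards from it. It is chr13:94712546-94712715, 170 bases written on the plus strand, so that SOX21-AS1 starts just after its last base and SOX21 just before its first base on the other strand. Capitals mark TATAAA, the letters of a TATA box.

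SOX21 to SOX21-AS1 interval: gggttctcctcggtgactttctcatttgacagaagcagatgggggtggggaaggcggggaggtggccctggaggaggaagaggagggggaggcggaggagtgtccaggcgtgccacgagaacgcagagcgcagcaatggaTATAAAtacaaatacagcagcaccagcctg

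The TATAAA letters begin at position 94712686, on the strand and the side of SOX21-AS1, and occurred on either strand in 11.5% of 35116 RefSeq promoter windows of the same length. ACAAT, 1 form of the core letters bound by SOX proteins, was found 0 times on either strand of both windows. Of all windows, 27.4% held it. Other forms of the SOX core were not searched, so their absence is not shown. CCAAT was found 1 time in each window and 0 times between the starts (34.6% of all windows), and GGGCGG 0 times (45.0%). GC content was 60.0% in the SOX21 window and 62.3% in the SOX21-AS1 window, close to the median of 58.7% over all windows. These matches describe the letters of the windows and are not evidence of binding.

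SOX21 mRNA was still present in the libraries labelled SOX21-/-, at levels not shown to differ from wild type. At day 0 SOX21 was at 1.26 TPM in WT1, 1.39 in WT2, 1.62 in S13 and 1.84 in S23. By day 4 the level was 156 TPM in WT1, 166 in WT2, 162 in S13 and 143 in S23, so that the genotypes overlapped. At day 8 the wild-type libraries WT1 and WT2 were at 129 and 100.04 TPM, S13 was above both at 253 TPM and S23 below both at 69.9 TPM.

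SOX21-/- minus wild type, on the log2 scale, was 0.23 ± 0.47 (SE) at day 0, -0.085 ± 0.47 at day 4 and 0.23 ± 0.47 at day 8, with adjusted p of 1, 1 and 0.898. The 95% intervals ran from -0.85 to 1.31, from -1.16 to 0.99 and from -0.85 to 1.30. Differences of up to about 1 on the log2 scale in either direction were thus not excluded by this fit. Its error is shared by all days, and 94.7% of the squared deviations of SOX21 lay in the day 8 SOX21-/- pair. With only the libraries of 1 day fitted, the SE was 0.12 at day 0, 0.086 at day 4 and 0.78 at day 8. The differences did not pass in those fits either (adjusted p = 0.862, 0.686 and 0.964, limma). Over all genes tested, 0.384% passed the threshold at day 0, 0.775% at day 4 and 2.79% at day 8. A level per gene cannot show a change that leaves the mRNA in place, such as a frameshift, so it does not check the label; the libraries are called SOX21-/- here because their labels say so.

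**Figure D1:**
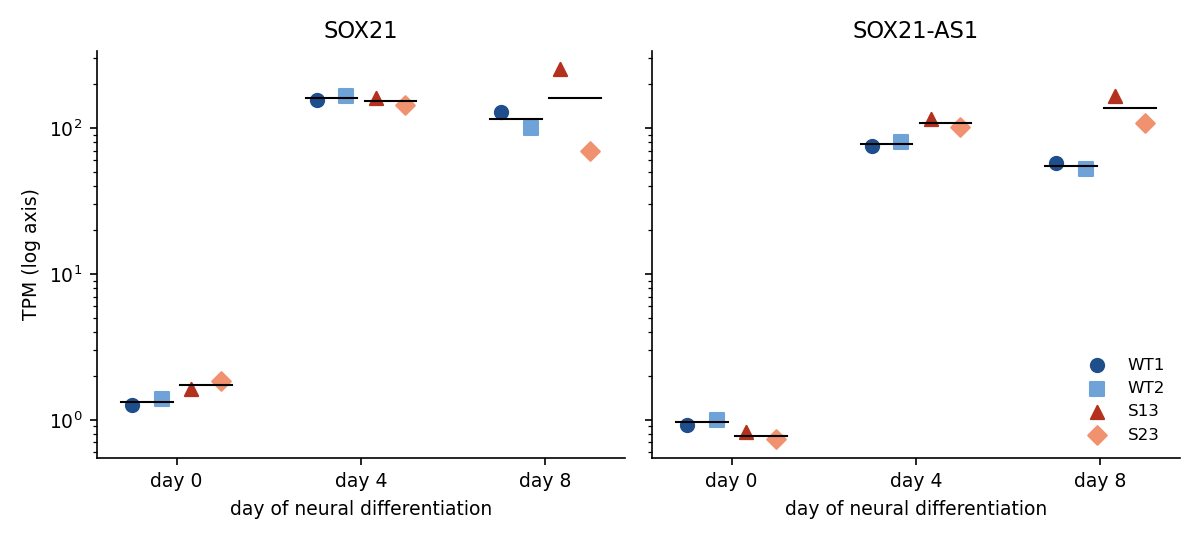
TPM of SOX21 (left) and SOX21-AS1 (right) in each of the 12 libraries on a log axis, by day of neural differentiation. Each symbol is 1 library, and a black line is the mean of the 2 libraries of a group. Both genes are below 2 TPM at day 0 and above 50 TPM later, S13 and S23 part at day 8 for SOX21, and both lie above the wild-type libraries for SOX21-AS1 at days 4 and 8.

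Of the 2 genes only SOX21-AS1 was called by genotype in the fit to all libraries, at day 8. Whether the 2 genes differ in their response to genotype was not tested. The SOX21 interval at day 8, -0.85 to 1.30, holds the SOX21-AS1 estimate of 1.28. At day 0 SOX21-AS1 was at 0.923 TPM in WT1, 0.994 in WT2, 0.824 in S13 and 0.735 in S23. At day 4 the wild-type libraries were at 75.8 and 79.7 TPM, S13 at 115 and S23 at 102. At day 8 the wild-type libraries were at 57.2 and 52.1 TPM, S13 at 165 and S23 at 108. The SOX21-/- libraries thus lay below the wild-type ones at day 0 and above them at days 4 and 8, with no overlap. Such separation, in either direction, was seen for 29.7% of all genes tested at day 0, 44.9% at day 4 and 43.1% at day 8, so by itself it sets SOX21-AS1 little apart.

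By the fitted test SOX21-AS1 rose with the SOX21-/- label at day 8, by 1.28 ± 0.18 (SE) on the log2 scale (95% interval 0.87 to 1.69, adjusted p = 0.00987, limma). Its mean TPM was then 2.50 times the wild-type mean, 137 ± 40.3 (SD, n = 2) against 54.7 ± 3.57. At day 4 the difference was 0.47 (interval 0.064 to 0.88), which did not pass after adjustment (adjusted p = 0.231), and the ratio of means was 1.40. At day 0 it was -0.14 (interval -0.55 to 0.27, adjusted p = 1). The day 8 call was lost when only the day 8 libraries were fitted (1.28, adjusted p = 0.256) and without the WT2 library of day 8 (1.21, adjusted p = 0.0853).

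The change of the genotype difference was tested directly. For SOX21-AS1 it grew by 0.61 ± 0.25 from day 0 to day 4 (adjusted p = 0.389) and by 0.80 ± 0.25 from day 4 to day 8 (interval 0.22 to 1.38, adjusted p = 0.168), and neither passed. For SOX21 the same changes were -0.32 ± 0.66 (adjusted p = 0.903) and 0.31 ± 0.66 (adjusted p = 0.899). Over all genes tested, 0.408% passed for the first interval and 1.11% for the second. A genotype difference specific to day 8 was therefore not shown for SOX21-AS1.

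**Figure D2:**
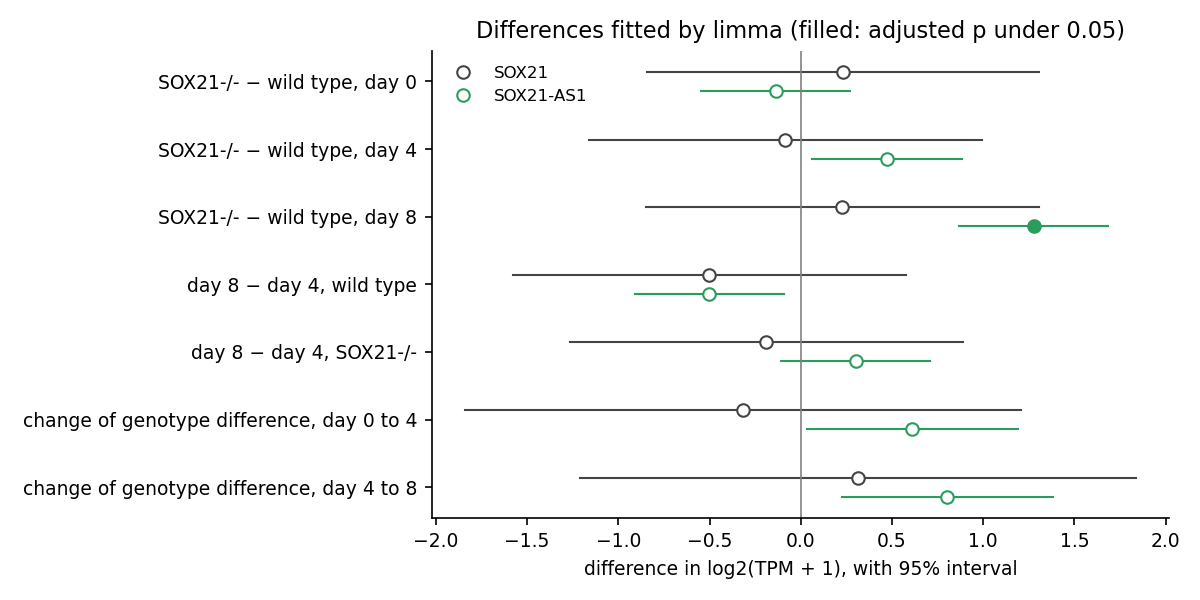
Differences in log2(TPM + 1) with their 95% intervals, not adjusted for multiple tests, for SOX21 (grey) and SOX21-AS1 (green), by comparison. Filled circles passed an adjusted p of 0.05. The SOX21-AS1 difference at day 8, 1.28, is the filled one, and the SOX21 intervals are the wider ones.

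Summed levels of progenitor and neuron markers lay apart by genotype at day 8, but the sums were not tested and few single markers passed. Over all genes tested, 2.79% passed at day 8, and for 43.1% both libraries of 1 genotype lay above both of the other. In bulk RNA, fewer cells of a type and less RNA per cell cannot be told apart. At day 8 the summed TPM of 8 neural progenitor markers was 2176 to 2260 in wild type and 2703 to 2766 in SOX21-/-, with all 8 above 1 TPM in every library of that day; 0 of the 8 passed, and PROM1 (-1.19, adjusted p = 0.0904) had the opposite sign to the sum. That of 6 neuron markers was 362 to 370 in wild type and 197 to 271 in SOX21-/-. Of the 5 tested 1 passed, DCX, a microtubule protein of young neurons, which fell by 2.49 (adjusted p = 0.00554), while ELAVL4 (1.19, adjusted p = 0.0551) had the opposite sign to the sum. The part of these shifts in the SOX21-AS1 difference was not tested.

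Both genes rose steeply from day 0 to day 4. In wild type SOX21 went from 1.32 ± 0.087 TPM (SD, n = 2) at day 0 to 161 ± 7.00 at day 4, a ratio of means of 122, and in SOX21-/- from 1.73 ± 0.159 to 152 ± 13.4, a ratio of 88.1. By line the ratio was 124 in WT1, 120 in WT2, 100.1 in S13 and 77.6 in S23. SOX21-AS1 rose 82.1-fold in WT1, 80.2-fold in WT2, 140-fold in S13 and 138-fold in S23. The order of the genotypes was thus opposite for the 2 genes, with larger rises of SOX21 in wild type and of SOX21-AS1 in SOX21-/-. None of these differences in rise passed the tests above. All these ratios rest on day 0 levels below 2 TPM, and the SOX21 levels of the genotypes overlapped at day 4.

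On the log2 scale SOX21 rose by 6.13 in wild type (adjusted p = 6.80e-06) and by 5.81 in SOX21-/- (adjusted p = 1.05e-05). SOX21-AS1 rose by 5.33 (adjusted p = 1.11e-07) and by 5.94 (adjusted p = 6.99e-08). This step moved most genes: 65.7% of those tested passed in wild type and 60.6% in SOX21-/-, with median changes of 0.91 and 0.72. Only 16 of 24248 genes rose further than SOX21 in wild type and 32 further than SOX21-AS1; in SOX21-/- the numbers were 20 and 15.

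The make-up of the libraries also changed at this step. The share of TPM in nuclear protein-coding genes was 55.9% to 56.4% at day 0 and 83.5% to 87.1% at days 4 and 8, a shift whose part in the rise was not tested. Median-of-ratios scaling, which removes the shift of the median gene, gave rises of 5.03 and 4.85 for SOX21 and of 4.31 and 5.15 for SOX21-AS1, in wild type and SOX21-/-. The summed TPM of 8 pluripotency markers was 2592 to 2774 at day 0 and 1017 to 1095 at day 4, with 7 called lower and 1 higher in each genotype. The higher one was LIN28A, at 844 to 952 TPM at day 4, which made up most of that day's sum. POU5F1, 1 of the 7 lower, went from 1507 to 1744 TPM at day 0 to 20.5 to 32.4 TPM at day 4. That of the 8 neural progenitor markers was 216 to 263 at day 0 and 1471 to 1646 at day 4, with 7 called higher in each genotype and 1 lower in SOX21-/-.

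Within each library the rise moved SOX21 from place 13450 to 14575 among all genes at day 0 to place 779 to 912 at day 4. Among the 7520 lincRNAs, SOX21-AS1 went from place 504 to 653 at day 0 to places 17 and 18 in wild type and 7 and 10 in SOX21-/- at day 4. At day 8 it was at places 26 and 27 in wild type, 8 in S13 and 14 in S23. SOX21-AS1 was therefore among the most abundant lincRNAs of these neural cultures in both genotypes.

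After day 4 the levels changed little against the spread. From day 4 to day 8 SOX21 went to 0.824 of its level in WT1, 0.601 in WT2, 1.56 in S13 and 0.489 in S23. The fitted steps were -0.50 in wild type (adjusted p = 0.550) and -0.19 in SOX21-/- (adjusted p = 0.836), and neither passed. SOX21-AS1 went to 0.754 in WT1 and 0.654 in WT2, and to 1.43 in S13 and 1.06 in S23. Its fitted steps, -0.50 (adjusted p = 0.108) and 0.30 (adjusted p = 0.262), did not pass either, while 12.6% of all genes tested passed at this step in wild type and 26.1% in SOX21-/-.

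Ordered by group mean, SOX21 stood at 161 ± 7.00 TPM (SD, n = 2) in wild type at day 4, level with 161 ± 129 in SOX21-/- at day 8. Next came 152 ± 13.4 in SOX21-/- at day 4 and 114 ± 20.4 in wild type at day 8. The SOX21-/- group of day 8 does not differ from any of the others beyond its spread. SOX21-AS1 stood at 137 ± 40.3 in SOX21-/- at day 8, 109 ± 9.76 in SOX21-/- at day 4, 77.8 ± 2.76 in wild type at day 4 and 54.7 ± 3.57 in wild type at day 8. The 2 SOX21-/- groups overlap in that order, and the others are apart by more than their SDs. Both genes were lowest at day 0, where the groups lay within 1 TPM of each other.

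S13 and S23 gave opposite pictures of SOX21 at day 8. They differed by 3.62-fold, or 1.84 on the log2 scale, and 2.87% of the genes tested (697) differed between these 2 libraries by at least as much. At days 0 and 4, and between WT1 and WT2 at every day, the difference was at most 0.36. A difference of at least 1 was seen between S13 and S23 for 6.21% of genes at day 0, 10.4% at day 4 and 9.79% at day 8, and between WT1 and WT2 for 6.38%, 9.35% and 10.5%. SOX21-AS1 differed by 1.53-fold between S13 and S23 at day 8, as far as 19% of genes.

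This 1 pair of libraries sets the error of SOX21. The day 8 SOX21-/- group held 94.7% of the squared deviations of SOX21 from its group means, and 85.3% for SOX21-AS1. Without the S23 library of day 8 the SOX21 difference at day 8 was 1.15 and passed (adjusted p = 0.0352), and without S13 it was -0.69 and did not (adjusted p = 0.111). Likewise the SOX21-/- step of SOX21 from day 4 to day 8 was 0.73 without S23 (adjusted p = 0.0291) and -1.11 without S13 (adjusted p = 0.00695). No direction can be given for SOX21 in SOX21-/- at day 8. The SOX21-/- step of SOX21-AS1 depended on the same libraries: 0.60 without S23 (adjusted p = 0.0237) and -0.0025 without S13 (adjusted p = 1).

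The ratio of SOX21-AS1 to SOX21 TPM, which does not depend on scaling between libraries, was 0.732 in WT1 and 0.718 in WT2 at day 0, against 0.510 in S13 and 0.399 in S23. At day 4 it was 0.485 and 0.479 in the wild-type libraries and 0.714 and 0.712 in S13 and S23. The day 8 ratio was 0.444 in WT1, 0.521 in WT2, 0.653 in S13 and 1.55 in S23. The ratio was thus lower in SOX21-/- at day 0 and higher at days 4 and 8, without overlap on any day; the day 0 ratios rest on levels below 2 TPM. S23 at day 8 was the only library of the 12 with more SOX21-AS1 than SOX21. These are descriptions: the ratio was not tested, and how often other gene pairs separate in this way was not measured.

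**Figure D3:**
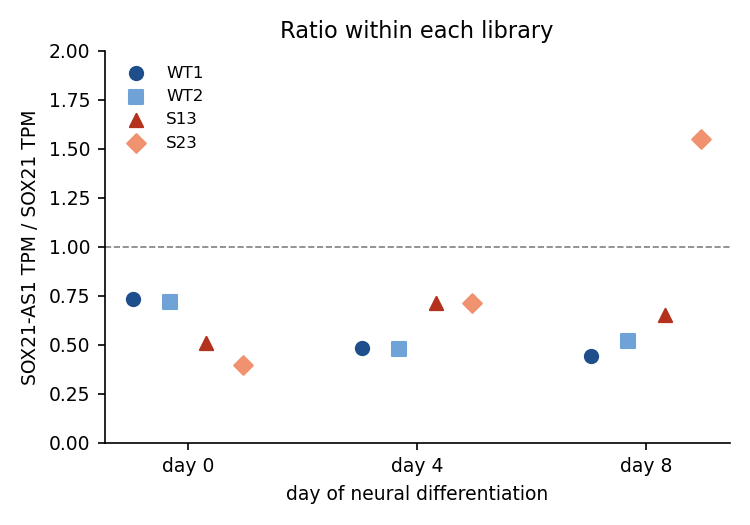
Ratio of SOX21-AS1 TPM to SOX21 TPM in each library, by day; the dashed line is a ratio of 1. Wild type goes from 0.732 and 0.718 at day 0 to between 0.444 and 0.521 later, S13 and S23 are near 0.71 at day 4, and S23 reaches 1.55 at day 8.

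Over all 12 libraries log2(TPM + 1) of the 2 genes had a Pearson r of 0.986 and a Spearman rho of 0.790, which mostly restates the step after day 0. Over the 8 libraries of days 4 and 8 r was 0.443 and rho 0.5. Both genes come from the same libraries and share their depth and composition.

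Other developmental genes with a partner on the opposite strand give a comparison. Of 20 such pairs listed, 19 were found, and 13 with both genes tested lay on opposite strands. Their r over all 12 libraries ran from 0.743 to 0.995 with a median of 0.944, and 2 of them were above SOX21 and SOX21-AS1: LHX5 with LHX5-AS1 (0.995) and FOXD3 with FOXD3-AS1 (0.991). Over days 4 and 8 the 13 pairs ran from 0.281 (ZEB2 with ZEB2-AS1) to 0.957 with a median of 0.895. SOX21 with its partner was near the low end. Only 2 of the 13 pairs were divergent like the SOX21 pair, and in the others the spans of the genes overlap. Over days 4 and 8 the divergent pairs had r of 0.895 (SIX3 with SIX3-AS1) and 0.694 (OTX2 with OTX2-AS1). Whether overlapping spans affect r was not tested.

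In 2 of the other pairs below both genes rose by genotype at day 8, whereas of SOX21 and SOX21-AS1 the second passed and the first did not. LHX5, a LIM homeobox factor of the anterior neural plate, rose by 2.46 (adjusted p = 0.00193) and LHX5-AS1 by 3.10 (adjusted p = 0.0015). ZNF503, a zinc finger repressor, rose by 2.21 (adjusted p = 0.0108) and ZNF503-AS2 by 1.50 (adjusted p = 0.0143). SIX3, a homeobox factor of the eye field and rostral forebrain, fell by 2.29 (adjusted p = 0.00189), and its divergent partner SIX3-AS1 had -1.51, which did not pass (adjusted p = 0.084). The spans of LHX5 and ZNF503 overlap those of their partners, unlike SOX21 and SOX21-AS1. Whether the SOX21 pair differs from these pairs was not tested.

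**Figure D4:**
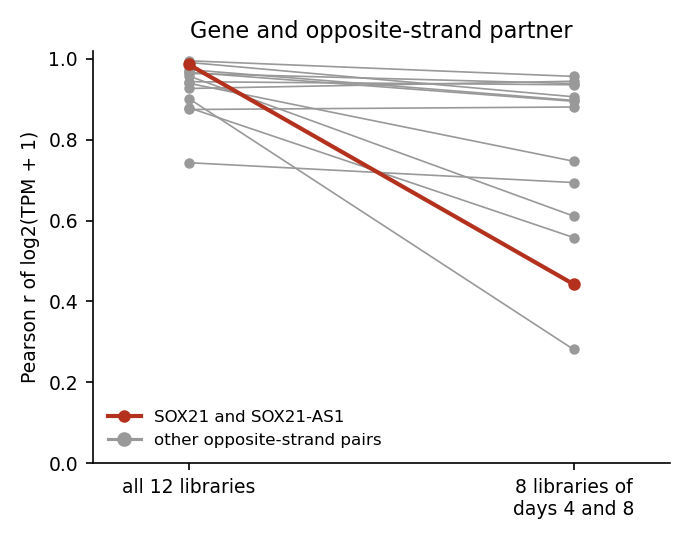
Pearson r of log2(TPM + 1) between a gene and its opposite-strand partner over all 12 libraries and over the 8 libraries of days 4 and 8. Red is SOX21 with SOX21-AS1 (0.986 and 0.443), and grey lines are 13 other pairs, whose medians are 0.944 and 0.895. Of the 13, 2 are divergent and the others have overlapping spans.

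Few of the neighbouring genes were called by genotype. Within 1 Mb of SOX21 lay 24 other annotated genes, of which 12 were tested. By genotype 0 of the 12 were called at days 0 and 4 and 1 at day 8, the processed pseudogene RPL21P112, which rose by 3.85 (adjusted p = 0.0419) and was not called under median-of-ratios scaling (which called 1 neighbour lower at day 0, RN7SL585P). The shares over all genes tested were 0.384%, 0.775% and 2.79%, so these counts say nothing particular about the locus. Its day 8 levels were 0.435 TPM in WT1, listed at 0 in WT2, 6.37 in S13 and 39.5 in S23; as a near copy of a ribosomal protein gene it can share reads with others, so it is uncertain. The nearest protein-coding genes, TGDS and GPR180, an enzyme related to dTDP-glucose dehydratases and a putative receptor, differed by 0.25 (adjusted p = 0.601) and 0.15 (adjusted p = 0.729) at day 8.

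Some pseudogenes and noncoding genes near SOX21 were highest in S23, while SOX21-AS1, TGDS and GPR180 were higher in S13 than in S23 at day 8. LINC00391, a lincRNA on the strand of SOX21 that lies 6.76 kb beyond its end, was at 3.03, 3.31 and 3.45 TPM in WT1, WT2 and S13 at day 4 and at 12.8 TPM in S23. Its day 8 levels were 2.54, 2.24, 2.86 and 6.55 TPM in the same order. RN7SL585P beside it, a copy of the abundant 7SL RNA and uncertain for that reason, was at 14.8, 20.7, 32.9 and 64.9 TPM at day 4. BRD7P5, another pseudogene, was below 1 TPM in 11 libraries and at 5.92 TPM in S23 at day 8. These genes were singled out after their values were seen, and differences by genotype passed for none of LINC00391 (adjusted p = 0.582 at day 8) and RN7SL585P (adjusted p = 0.131).

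From day 0 to day 4, 6 of the 12 neighbours rose in wild type and 8 in SOX21-/-, with 0 falling. Over all genes tested, 54.3% rose in wild type and 48.1% in SOX21-/-, so the neighbours were near the background. Median-of-ratios scaling left 3 higher and 1 lower in wild type, and 6 higher in SOX21-/-. The largest rise among protein-coding neighbours in wild type was that of GPR180, 1.97 (adjusted p = 1e-05), against 6.13 for SOX21.

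**Figure D5:**
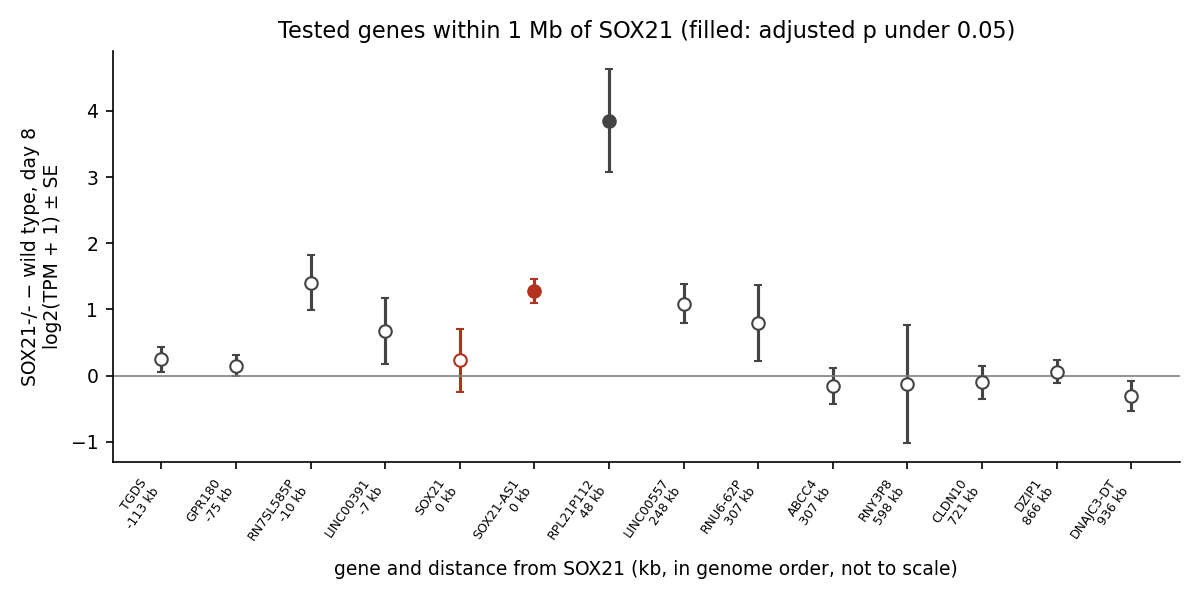
SOX21-/- minus wild type at day 8 in log2(TPM + 1), with SE, for SOX21 and SOX21-AS1 (red) and the 12 tested genes within 1 Mb, in genome order with their distance from SOX21. Filled circles passed an adjusted p of 0.05: SOX21-AS1 at 1.28 and RPL21P112 at 3.85.

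Among the SOX genes SOX21 moved from a minor to a leading member. Of 19 SOX genes including SOX21 itself, it was at place 7 to 9 by TPM at day 0, and at place 2 in all 4 libraries of day 4, below SOX2. At day 8 it was at place 3 in both wild-type libraries, 2 in S13 and 5 in S23. SOX2, the B1 factor that maintains pluripotency and neural progenitors, was at 432, 426, 290 and 403 TPM at day 4 in WT1, WT2, S13 and S23, and at 374 to 436 TPM at day 8.

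Of the 18 other SOX genes 13 were tested, and 12 of them rose from day 0 to day 4 in each genotype, with median changes of 1.96 in wild type and 1.50 in SOX21-/-. Over all genes tested the shares that rose were 54.3% and 48.1%, with medians of 0.91 and 0.72. Median-of-ratios scaling left 7 of the 13 higher and 1 lower in wild type, and 8 higher and 1 lower in SOX21-/-, against 5557 and 5286 higher of all 24248 genes. None rose further than SOX21 in wild type: SOX11, a neural and neuronal factor, rose by 4.23 and SOX5 by 4.19, while SOX2 rose by 2.66.

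By genotype 0 of the 13 were called at day 0, 0 at day 4 and 2, both higher, at day 8, with a median of 0.016, against 0.384%, 0.775% and 2.79% of all genes called and a day 8 median of 0. Median-of-ratios scaling called 1 higher at day 4, SOX13, and SOX13 and SOX14 again at day 8. SOX14, the other B2 factor, was listed at 0 in both wild-type libraries of day 8 and was at 3.40 TPM in S13 and 5.06 in S23 (adjusted p = 0.00161). SOX13, a SOXD factor, had 35.4 TPM in WT1, 38.3 in WT2 and 130.2 in each of S13 and S23 (log2 change 1.79, adjusted p = 0.0002). The B1 factors SOX2 (0.016, adjusted p = 1), SOX3 (0.28, adjusted p = 0.537) and SOX1 (1.42, adjusted p = 0.189) did not pass.

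The forebrain and neural progenitor factors, among which SOX21 acts, gave the wider view: of 28 tested, 23 rose from day 0 to day 4 in wild type and 21 in SOX21-/-, with medians of 3.16 and 3.44, against 54.3% and 48.1% of all genes. PAX6, the eye-field and cortical regulator, rose further than SOX21, by 6.59, and so did SIX3, by 6.54. By genotype 0 were called at day 0, 4 higher and 3 lower at day 4, and 7 higher and 4 lower at day 8, against 0.384%, 0.775% and 2.79% of all genes called either way. Both other scalings gave 3 higher and 2 lower at day 4, and 7 higher and 3 lower at day 8. Among those higher at day 8 were OTX1 (2.97, adjusted p = 0.00393), NR2F2 (1.75, adjusted p = 0.00346) and EMX2 (2.44, adjusted p = 0.0409), and among those lower ZIC1 (-3.15, adjusted p = 0.0378).

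Many genes had a course like that of SOX21 over all 12 libraries. Among 15921 genes with a mean TPM of at least 5 in a group, the median r with SOX21 was 0.856, and 342 were more like it than SOX21-AS1 was. The closest were AAGAB (r = 0.997), RAB1B (0.996) and PNPLA4 (0.996). AAGAB, an adaptin-binding protein of vesicle traffic, was at 11.7 to 13.1 TPM at day 0 and at 76.1 TPM in S13 and 53.7 in S23 at day 8. Closest to SOX21-AS1 was POLDIP3 (0.997). These lists rest on the shared step after day 0: under median-of-ratios scaling the median r with SOX21 was -0.030, and 0 of its 10 closest genes and 1 of the 10 of SOX21-AS1 were retained.

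Over the 8 libraries of days 4 and 8, DDX31 (r = 0.974), AAGAB (0.944) and ID3 (0.944) were closest to SOX21. ID3, an inhibitor of bHLH factors that BMP signals induce, was at 46.1, 53.3, 42.3 and 23.4 TPM at day 4 in WT1, WT2, S13 and S23, and at 16.7, 15.1, 72.8 and 8.34 TPM at day 8. Like SOX21 it was high in S13 and low in S23 at day 8, which its choice by r over these libraries favours. The median r with SOX21 of all 15921 genes over the same 8 libraries was -0.014.

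Over the same libraries GNAI1 (r = 0.986), CITED2 (0.958) and APP (0.955) were closest to SOX21-AS1. CITED2, a transcriptional co-regulator, had day 4 levels of 70.7 TPM in WT1, 77.1 in WT2, 96.8 in S13 and 102 in S23. Its day 8 levels were 42.6, 37.0, 126 and 93.8 TPM in the same order. GNAI1, an inhibitory G protein subunit, had day 8 levels of 20.7 TPM in WT1, 19.9 in WT2, 28.8 in S13 and 26.2 in S23. None of the 10 genes closest to SOX21 were among the 10 closest to SOX21-AS1 over either set of libraries (0 shared). Median-of-ratios scaling retained 4 of the 10 genes of SOX21 and 6 of the 10 of SOX21-AS1 over days 4 and 8.

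Markers of other cell types differed in level. Mesoderm markers summed to less than 3 TPM in every library. Endoderm markers summed to 29.5 to 30.7 TPM in wild type and 90.9 to 110 TPM in SOX21-/- at day 8, nearly all of it CXCR4, which neural cells also make, while SOX17 was listed at 0 in all 12 libraries. Of the neural crest markers, SOX10 was below 1 TPM in every library. Surface ectoderm and placode markers summed to 178 to 179 TPM in wild type and 192 to 242 TPM in SOX21-/- at day 8, most of it the keratins KRT8 and KRT18. By genotype 0 of the tested surface ectoderm and placode markers passed at day 8, against 2.79% of all genes tested.

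The S13 library of day 8, the one with the highest SOX21, also had the highest levels of 3 neural crest markers that day. PAX3 was at 11.9 TPM in S13 against 1.75 in S23, SNAI2 at 9.44 against 2.99, and TFAP2A at 2.64 against 0.187. The part of these markers in the split of SOX21 between the 2 libraries was not tested.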

How the data were processed

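Poly(A) RNA of 12 libraries was quantified by the authors as TPM per gene; per the submitters' processing notes the tools were CASAVA 1.7 and Salmon 0.8.2 with build hg38. The library protocol names several sequencers and read lengths without assigning them to libraries; the annotation release and use of strand are not given in the sources used here. TPM keeps no read numbers, so the depth and its precision are unknown. The table held 0 columns of other series.

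Genes that reached 1 TPM in 2 or more libraries were fitted on log2(TPM + 1) with limma 3.58.1 in R 4.3.3: a mean per group of genotype and day, moderated variances with a trend, 6 residual degrees of freedom, two-sided tests, Benjamini-Hochberg adjustment within each comparison, threshold 0.05. The fit was tested on simulated data. A fold change on this scale understates the change of low genes. Every adjusted p is from limma. "Listed at 0" means an exact 0 in the table, which can be a failed estimate.

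SOX21 and SOX21-AS1 and the gene lists were chosen with earlier results of these data known. Named besides them were the 10 genes with the highest Pearson r with each, and members of the SOX, forebrain, marker and pair lists and neighbours within 1 Mb. A few genes that could be named are left out here. GENCODE v29 matched 57881 of 58219 identifiers without version, and both genes matched RefSeq promoters by symbol. Alternatives tried were another pseudocount (0.1), other filters (5 TPM or none), median-of-ratios or protein-coding scaling, no trend, fewer libraries, the line label as block or random effect, and each library left out.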

Additional observations from a re-analysis of the deposited data

How the results depend on the processing

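Across the alternatives, 359 of the values of SOX21 and SOX21-AS1 kept their direction and their side of the threshold, 6 changed sign (1 of them also came to pass), 5 came to pass with their sign kept, and 2 no longer passed. Median-of-ratios scaling turned the SOX21 genotype difference at day 4 to 0.082, and fitting only day 8 gave 1.28 for SOX21-AS1 with an adjusted p of 0.256 (limma); over the other alternatives that keep all libraries its adjusted p was 0.0081 to 0.0317. The SE of the SOX21-AS1 difference at day 8 was 0.26 with only day 8 fitted, against 0.18 with all days. The cause was not tested, beyond the fewer libraries. With each library left out, the genotype difference of SOX21 ran from -0.17 to 0.0039 at day 4 and from -0.69 to 1.15 at day 8, its SOX21-/- step from day 4 to day 8 from -1.11 to 0.73, and the change of its genotype difference over that step from -0.61 to 1.23. For SOX21-AS1 the day 8 difference ran from 0.97 to 1.58, its day 4 to 8 step in wild type from -0.57 to -0.44 (past the threshold without the S13 or the S23 library of day 8, adjusted p = 0.0254 and 0.0249), and the SOX21-/- step from -0.0025 to 0.60.

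The line label as a replicate block left the SOX21-AS1 step from day 0 to day 4 at 5.33 in wild type (adjusted p = 2.83e-06) and changed no call of either gene. Lines of the same name did not deviate together across days (r from -0.006 to 0.071 over genes), so the label is not taken to pair the libraries; genotype differences cannot be blocked because lines are nested in genotype. Over all genes the block moved the calls for the change of the genotype difference from 99 to 22 (day 0 to 4) and from 270 to 17 (day 4 to 8). Median-of-ratios scaling moved the calls by genotype from 93 to 154 at day 0 and from 188 (58 higher, 130 lower) to 97 (61 higher, 36 lower) at day 4, with 112 under protein-coding scaling, and the day 4 to 8 change from 270 to 104, with 171 under protein-coding scaling. Protein-coding scaling and a pseudocount of 0.1 retained 7 to 10 of each list of 10 closest genes; the scalings of those lists were added after seeing the data.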
